A study of Mus musculus with 186 samples.

Results

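Of the 940 enhancer regions that the authors measured in total RNA of cultured mouse cortical neurons, 589 have coordinates that are absent from the authors' table of the enhancer capture, and these 589 are described here. The other 351 regions stand in both tables with the same coordinates and are called captured regions. No region seen only in total RNA overlapped a captured one, so the 589 are separate stretches of the genome and not the same stretches with other borders. Membership was decided from coordinates alone. Regions are named by the deposited coordinates, on the mm9 build per the submitters' processing notes, and a gene named beside a region is the gene that the authors' capture table gives for the nearest captured region. This does not annotate the region itself, and whether a region lies in an exon, intron or UTR was not analysed here.

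The cells were cortical neurons of CD1 mice, dissected from embryos at E16.5 and grown for 7 to 8 days in vitro. All groups came from this strain, and every group received a drug or its solvent. Cultures were given U0126, an inhibitor of the kinase MEK, or DMSO as vehicle, and were either exposed to a sustained or a brief pattern of activity and collected at 20 or 60 min, or left unstimulated. How activity was evoked is not stated in the labels. Each of the 10 groups had replicates numbered 1 and 2, and each unstimulated replicate had 2 cultures, grown separately from 1 dissection, which were averaged. The columns of 2 samples, vehicle brief 60 min replicate 2 and U0126 sustained 60 min replicate 2, held identical values, so both were left out and 22 libraries and 18 replicates remained. U0126 sustained 60 min and vehicle brief 60 min thus had 1 replicate each.

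An enhancer is a stretch of DNA, often far from a promoter, that raises transcription of a gene when transcription factors bind it. Active enhancers are themselves transcribed by RNA polymerase II into short-lived enhancer RNAs, so RNA from such a stretch is widely used as a sign of its activity. In neurons, calcium entry during activity switches on immediate early genes such as Fos, in part through the MEK and ERK kinases, and enhancers around these genes gain enhancer RNA within the first hour. Capture with RNA baits enriches a chosen set of regions from a library before sequencing, while total RNA libraries sample such regions at their natural abundance.

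The regions seen only in total RNA were rarely sequenced. Values are RPM, reads scaled to sequencing depth, as deposited, and each value corresponded to a whole number of reads. Over the 22 libraries these 589 regions held 10350 of the 132915 reads in all 940 regions, and the captured regions held 122565. The median region had 4 reads in total (quartiles 1 and 11), against 109 reads for the median captured region. No read was recorded for 74 of the 589, against 0 of the 351, and 339 of the 589 had at most 5 reads, against 3 of the 351. Only 4 of the 589 had a read in every library, against 163 of the 351.

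Per length, the median level over the 10 groups was 0.00472 RPM per kb, against 0.127 RPM per kb for captured regions. The regions were of similar size, with a median of 1120 bp (1010 to 2700 bp), against 1210 bp (1010 to 5190 bp). The distributions overlapped in their tails. Above the captured 10th percentile of 0.0213 RPM per kb lay 87 of the 589 regions, and 4 lay above the captured median, while 3 captured regions lay below the median of the regions seen only in total RNA. A library held between 3193 and 9145 reads in all enhancer regions, and between 62 and 175 of the 589 regions had a read in any one library. One read was worth between 0.0223 and 0.0572 RPM, so most values of a single region in a single library are 0 or a few such steps, and a region with 0 reads in a library may still be transcribed.

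**Figure D1:**
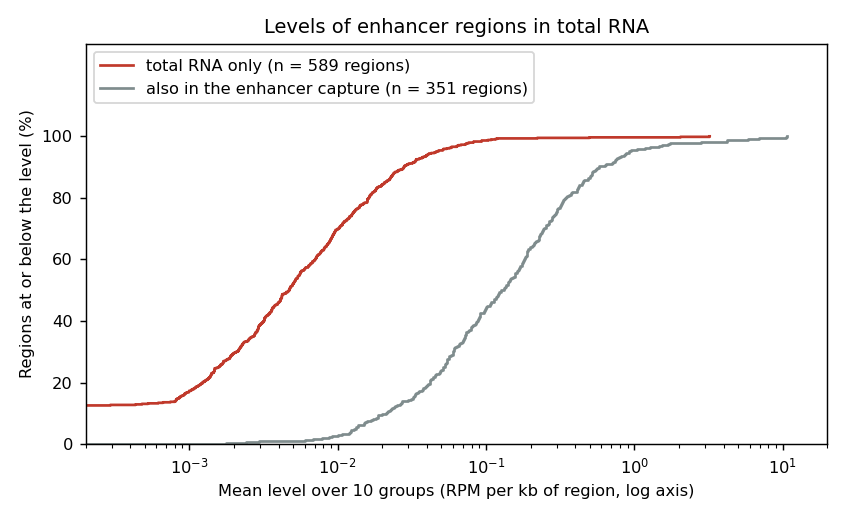
Cumulative share of regions (percent) by mean level over the 10 groups (RPM per kb of region, log axis) for the 589 regions seen only in total RNA (red) and the 351 captured regions (grey). The red curve starts at the share with no read and its median, 0.00472 RPM per kb, lies left of nearly the whole grey curve, whose median is 0.127 RPM per kb.

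Their level varied with their position relative to the captured regions. Within 5 kb of a captured region lay 47 regions (7.98%), with a median of 10 reads and 0.0116 RPM per kb. At 5 to 20 kb lay 89 regions (15.1%), with a median of 8 reads and 0.00944 RPM per kb. At 20 to 100 kb lay 177 regions (30.1%), with a median of 4 reads and 0.00480 RPM per kb. At 100 kb or more lay 276 regions (46.9%), with a median of 3 reads and 0.00324 RPM per kb. The median was thus lower at each step away from a captured region, which is a description without a test, since neighbouring regions share their surroundings. Strand was kept in library preparation, but the sources used here do not say whether the counting used it, so RNA of a transcript that runs across a region cannot be told apart from RNA that starts in it.

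The regions also lay close to each other, with 94 neighbouring pairs under 5 kb apart, and their share differed between chromosomes. They made up 33.3% of the enhancer regions on chromosome 8 and 83.3% of those on chromosome 9. The most crowded stretch was around Rgs4, a regulator of G protein signalling, with 13 regions within 50 kb of its 2 captured regions, but these held only 46 reads in all. Kcnf1, a potassium channel subunit, had 9 regions with 80 reads beside its 3 captured regions. Rasgrp1, an activator of Ras, had 7 regions with 6 reads. Immediate early genes differed among themselves, in examples chosen after their values were seen. Nr4a3, a nuclear receptor, had 3 regions with 116 reads, Egr4, a zinc finger factor, had 3 with 44 reads, Fos had 4 with 42 reads beside 6 captured regions, and Arc, a regulator of glutamate receptor trafficking, had 3 with 36 reads. Fosl2 had 2 regions with 3 reads, and Nr4a2, Nr4a1 and Atf3 had 1 region each, with 6, 4 and 1 reads.

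The highest levels stood apart from the rest. The region chr5:17281980-17283110 averaged 3.22 RPM per kb with 3010 reads, and its nearest captured region lay 7082070 bp away. The region chr1:133470000-133471130 averaged 2.04 RPM per kb with 1893 reads and lay 17420 bp from a captured region of Fam72a. Together they held 47.4% of all reads of the 589 regions. The third, chr18:38800910-38801940, averaged 0.498 RPM per kb with 353 reads and lay 8690 bp from a captured region of Spry4, an inhibitor of receptor tyrosine kinase signalling. The fourth, chr3:65264420-65265440, averaged 0.221 RPM per kb with 148 reads and lay 54910 bp from a captured region of Tiparp, an ADP-ribosyltransferase.

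The remaining 6 of the 10 highest regions lay between 0.0934 and 0.119 RPM per kb. Of these, 3 stood around Sstr2, a somatostatin receptor: chr11:113473180-113474190 (0.119 RPM per kb), chr11:113430550-113431600 (0.116 RPM per kb) and chr11:113471150-113472270 (0.109 RPM per kb). The first and last of them are 910 bp apart, and their read counts differed by at most 2 in every library and were equal in 13 of 22, so they should not be read as independent regions. The others were chr15:79336090-79337110, 2920 bp from a captured region of the potassium channel gene Kcnj4, chr3:145319520-145320550, 2520 bp from one of Cyr61, a secreted matrix protein, and chr9:45798660-45799740, 21851150 bp from any captured region.

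The region near Spry4 was read in every replicate, between 0.255 and 0.789 RPM. In U0126 it read 0.576 and 0.353 RPM unstimulated, 0.789 and 0.718 RPM at sustained 20 min, 0.475 RPM at sustained 60 min, 0.514 and 0.610 RPM at brief 20 min and 0.473 and 0.553 RPM at brief 60 min. In vehicle it read 0.653 and 0.532 RPM unstimulated, 0.610 and 0.255 RPM at sustained 20 min, 0.344 and 0.552 RPM at sustained 60 min, 0.514 and 0.347 RPM at brief 20 min and 0.457 RPM at brief 60 min. The ranges of stimulated and unstimulated replicates overlapped under both treatments, and no comparison of this region passed the test described below.

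The 2 highest regions varied widely between libraries of the same group. In U0126, chr5:17281980-17283110 read 0.244, 4.51, 0.137 and 17.5 RPM in the 4 unstimulated cultures, 2.61 and 4.64 RPM at sustained 20 min, 0.256 RPM at sustained 60 min, 0.460 and 2.22 RPM at brief 20 min and 0.631 and 0.173 RPM at brief 60 min. In vehicle it read 5.10, 1.27, 0.192 and 29.0 RPM in the 4 unstimulated cultures, 15.1 and 2.45 RPM at sustained 20 min, 0.893 and 0.0325 RPM at sustained 60 min, 3.31 and 7.34 RPM at brief 20 min and 1.66 RPM at brief 60 min. The extremes were 0.0325 RPM, from 1 read, and 29.0 RPM, from 617 reads, an 894-fold spread. The 2 unstimulated vehicle cultures of replicate 2, which came from 1 dissection, read 0.192 and 29.0 RPM. The highest culture of each treatment, 17.5 RPM in U0126 and 29.0 RPM in vehicle, were culture 2 of replicate 2 as the headers order them.

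The region chr1:133470000-133471130 spread over a 58.4-fold range, 0.227 to 13.3 RPM, and moved with the region on chromosome 5. Across the 22 libraries Pearson's r of their log2 levels was 0.883 and Spearman's rho 0.869, and r was 0.823 without the 2 libraries farthest from the median. For scale, the 153 enhancer regions with a read in every library and a mean of at least 5 reads had a median ratio of highest to lowest library of 5.77. Among 21520 intron transcripts measured in the same libraries, the 3 whose log2 level was most like that of the chromosome 5 region were Filip1l (r = 0.985, 22.2 to 8455 intron RPM), Jarid2 (r = 0.971, 64.6 to 7194 intron RPM) and Zc3h7a (r = 0.930, 45.1 to 1173 intron RPM), followed by Cript at r = 0.798. These values describe shared variation over the same libraries and depths, and its cause was not tested.

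**Figure D2:**
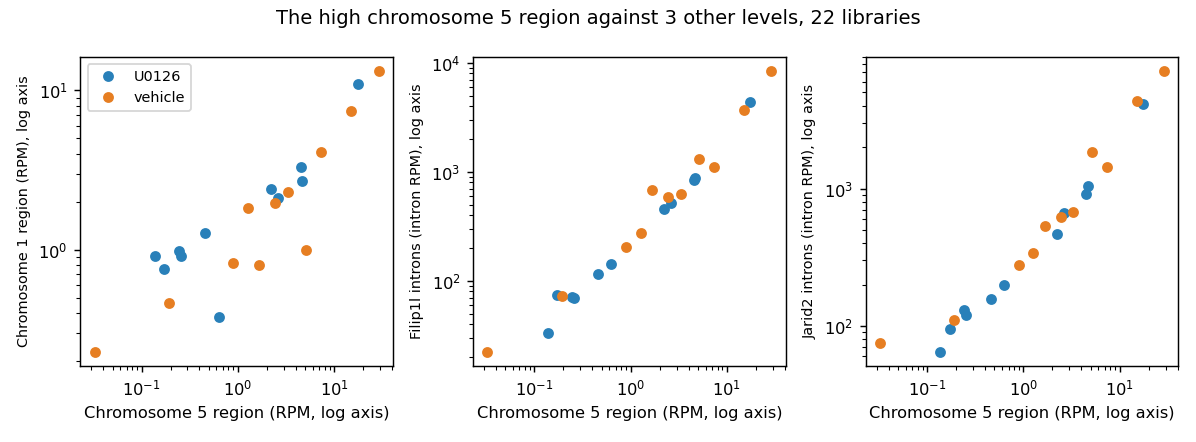
Level of the chromosome 1 region (left, RPM), Filip1l introns (middle, intron RPM) and Jarid2 introns (right, intron RPM) against the chromosome 5 region (RPM), all on log axes, with 1 point per library (U0126 blue, vehicle orange, 22 libraries). In all panels the points run along a diagonal from 0.0325 to 29.0 RPM, and both treatments occupy the same band.

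Because single regions held so few reads, their reads were also summed. With the 2 highest regions left out, the other 587 summed in U0126 to 7.74 ± 0.89 RPM unstimulated, 8.89 ± 2.70 RPM at sustained 20 min, 8.49 ± 1.58 RPM at brief 20 min and 7.68 ± 0.38 RPM at brief 60 min (SD, n = 2 each), and to 7.86 RPM at sustained 60 min (n = 1). In vehicle they summed to 7.36 ± 0.93 RPM unstimulated, 7.16 ± 1.28 RPM at sustained 20 min, 8.29 ± 0.26 RPM at sustained 60 min and 8.77 ± 0.72 RPM at brief 20 min (SD, n = 2 each), and to 7.95 RPM at brief 60 min (n = 1). All 10 group means lay between 7.16 and 8.89 RPM. In a bulk culture, fewer cells of a type and less RNA per cell cannot be told apart.

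The captured regions in the same libraries differed from the other 587 under sustained activity in vehicle, but hardly under brief activity. In vehicle they summed to 254.4 ± 12.3 RPM at sustained 60 min, against 158.8 ± 0.63 RPM unstimulated (SD, n = 2 each), a ratio of 1.60. The ratio for the other 587 regions was 1.13, or 0.17 on the log2 scale, where the SD pooled over groups was 0.23 for these regions and 0.059 for captured ones. By replicate number, the 587 regions summed to 8.11 RPM at sustained 60 min, against 6.71 RPM unstimulated, in replicate 1, and to 8.48 RPM, against 8.02 RPM, in replicate 2. Their sum was higher in replicate 2 than in replicate 1 in 8 of 8 groups that had both, and the pooled SD includes that difference. At sustained 20 min the ratio to unstimulated was 0.972 for these 587 and 1.16 for captured regions. At brief 20 min it was 1.19 and 1.17, and at brief 60 min, with 1 library, 1.08 and 1.08. U0126 against vehicle gave 1.05 unstimulated for the 587 regions, against 1.00 for captured ones. These sums carry no test.

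With the 2 highest regions included, the sum followed those regions. All 589 summed to 9.28 ± 0.77 RPM at sustained 60 min, against 20.4 ± 12.9 RPM unstimulated in vehicle (SD, n = 2 each). The unstimulated SD came mainly from a single culture, at 48.5 RPM.

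**Figure D3:**
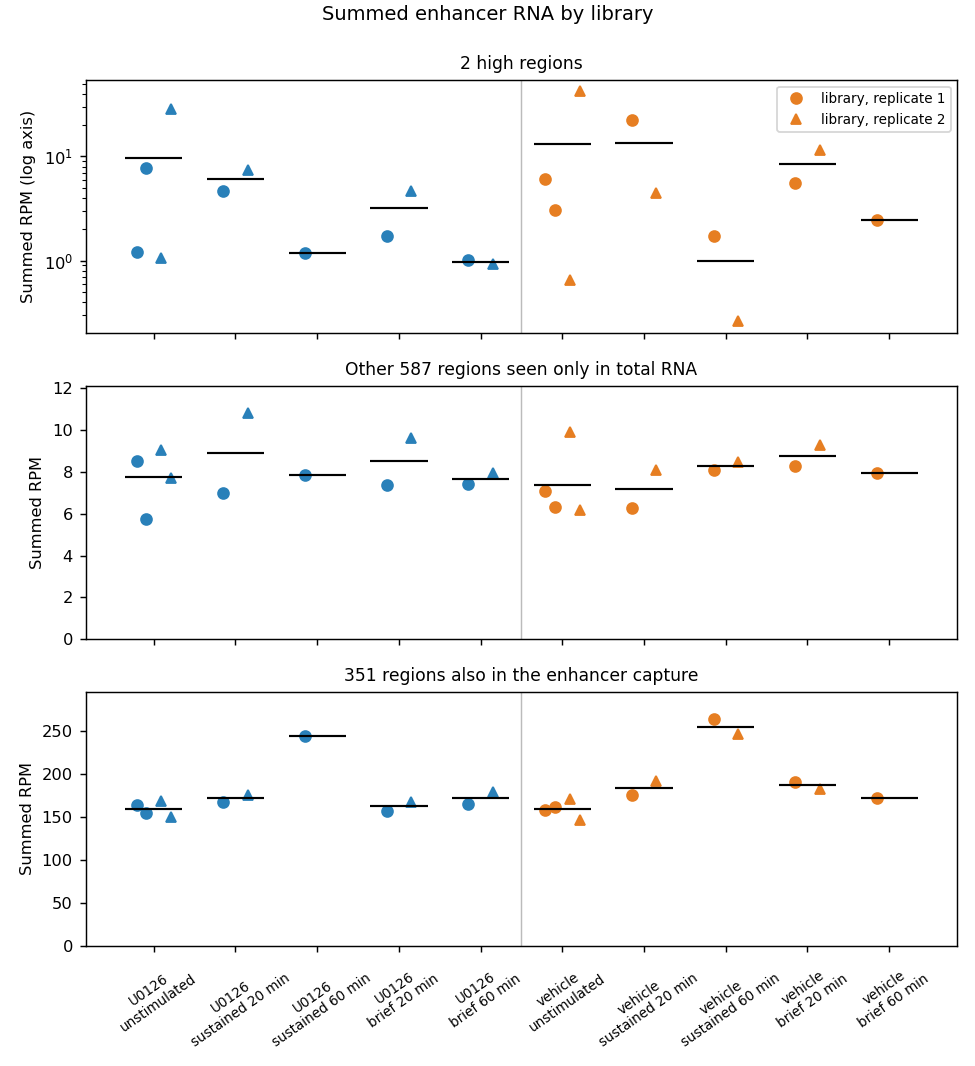
Summed RPM per library for the 2 highest regions (top, log axis), the other 587 regions seen only in total RNA (middle) and the 351 captured regions (bottom), by group, with U0126 groups on the left and vehicle groups on the right; circles are libraries of replicate 1, triangles of replicate 2, and bars are group means. Captured regions stand at 254.4 RPM in vehicle at sustained 60 min, against 158.8 RPM unstimulated, while the 587 regions stay between 7.16 and 8.89 RPM in all 10 group means.

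Single regions were tested with limma on log2(RPM + 0.03035), in 1 fit over all 10 groups, with Benjamini-Hochberg adjustment over all 374 regions whose mean reached the pseudocount. Of these, 63 were seen only in total RNA, so 526 of the 589 were not tested. On this scale the change of a region with few reads comes out too small. The stimulated groups of 1 treatment were all compared with the same unstimulated replicates.

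After 60 min of sustained activity in vehicle, 3 of the 63 tested regions passed an adjusted p of 0.05, where 15.8% of all tested regions did. Of the 3, 2 rose, where 14.4% of all tested regions rose, and 1 fell, where 1.34% fell. Both that rose reached the pseudocount in their mean only with the sustained 60 min replicates counted. The filter thus favoured regions that were high in this group, and these 2 calls are not free of that choice. Among captured regions 52 of 311 rose and 4 fell. An unadjusted p below 0.05 was found for 5 of the 63, against 25.9% of all tested regions. The median log2 difference was -0.066 over the 63 and 0.27 over the 311, and the median SE was larger, 0.67 against 0.55, so changes of the same size passed less easily. Rescaling to equal sums of all enhancer regions moved the median difference of all regions by -0.41 in this comparison. By construction this scaling also removes any change in the summed level of all regions. Under it neither of the 2 regions that rose passed (adjusted p = 0.0989 and 0.150 by limma), and 2 of the 63 fell, chr5:17281980-17283110 (-5.26, adjusted p = 0.0271 by limma) and chr1:133470000-133471130 (-3.24, adjusted p = 0.0352 by limma). Rescaling on intron reads instead moved that median by -0.021. There chr12:17168720-17169790 rose (2.28, adjusted p = 0.0466 by limma) and chr5:17281980-17283110 fell (-4.92, adjusted p = 0.0298 by limma). No other region seen only in total RNA passed under it. On the recovered reads edgeR called 48 of the 374 regions and DESeq2 17, and each called 2 of the 63, the 2 highest regions. DESeq2 gave no adjusted p for the 2 regions that rose in limma.

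The 2 regions that rose stood beside captured regions of Fos and Kcnf1. Fos encodes a subunit of the AP-1 transcription factor and is a classic activity-induced gene. The region chr12:86775280-86776310, 180 bp from a captured region of Fos, had 2 and 4 reads at sustained 60 min, against 0, 2, 0 and 0 reads in the 4 unstimulated cultures. In RPM these were 0.0687 and 0.130 at sustained 60 min, against 0.0249 and 0 unstimulated, and the replicates did not overlap. The log2 difference was 1.62 (SE 0.50, adjusted p = 0.0473 by limma). From the pooled reads the ratio was 5.74, with a 95% counting interval of 1.03 to 58.2.

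In U0126 this region read 0 and 0 RPM unstimulated, 0.0607 and 0.0299 RPM at sustained 20 min, 0.146 RPM at sustained 60 min, 0 and 0 RPM at brief 20 min and 0 and 0.0345 RPM at brief 60 min. The remaining vehicle groups read 0.0914 and 0.0510 RPM at sustained 20 min, 0.0223 and 0 RPM at brief 20 min and 0 RPM at brief 60 min. The highest of the 18 replicates was thus U0126 at sustained 60 min, from 4 reads. The difference of sustained against brief 60 min was 2.05 (SE 0.61) and did not pass (adjusted p = 0.0732 by limma). The captured region 180 bp away read 0.240 and 0.390 RPM at sustained 60 min, against 0.0433 and 0 RPM unstimulated, and Fos introns read 83.3 and 79.5 intron RPM, against 0.312 and 1.72 intron RPM. Whether RNA of the neighbouring region or of Fos reaches this region was not tested. The call was lost in edgeR's quasi-likelihood test (adjusted p = 0.330) and in 20 of 28 alternatives in all, with adjusted p between 0.0181 and 0.330. Without sustained 60 min replicate 1 or 2 or unstimulated replicate 2 the log2 difference was 1.97, 1.27 or 1.19, and the call was lost each time. It was also lost without either replicate of vehicle sustained 20 min and of U0126 unstimulated, sustained 20 min and brief 20 min. Without the U0126 sustained 60 min replicate the region fell below the filter on low values and was not tested.

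The region chr12:17168720-17169790, 1530 bp from a captured region of Kcnf1, had 6 and 2 reads at sustained 60 min, against 0 reads in all 4 unstimulated cultures. This was 0.206 and 0.0650 RPM, against 0 and 0 RPM. Set against the floor of 3 reads over the unstimulated group, 0.0262 RPM, the pooled level of 0.134 RPM was 5.10-fold higher. That figure leaves out the counting error of the 8 reads at sustained 60 min, so it is not a lower bound. Of the 8 reads, 6 came from replicate 1 at sustained 60 min, and without that replicate the region fell below the filter on low values and was not tested. The fitted log2 difference of 2.31 (SE 0.69, adjusted p = 0.0406 by limma) depends on the pseudocount and is no bound. None of the U0126 replicates exceeded 0.0488 RPM, while the remaining vehicle replicates read 0 and 0.102 RPM at sustained 20 min, 0.0223 and 0.0289 RPM at brief 20 min and 0.114 RPM at brief 60 min. The difference between the pooled U0126 response and the pooled vehicle response was -1.81 (SE 0.79) and did not pass (adjusted p = 0.989 by limma). The nearest captured Kcnf1 region read 0.0687 and 0 RPM at sustained 60 min, against 0 and 0.0384 RPM unstimulated. The call was lost in 14 of 28 alternatives, with adjusted p between 0.0222 and 0.163, edgeR among them (adjusted p = 0.0689). It was lost without either unstimulated vehicle replicate, and without either replicate of vehicle brief 20 min and of U0126 unstimulated and sustained 20 min.

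The region that fell was chr5:17281980-17283110, described above, by 4.83 on the log2 scale (SE 1.33, adjusted p = 0.0295 by limma). The groups did not overlap when cultures were averaged, at 0.893 and 0.0325 RPM against 3.19 and 14.6 RPM, but single unstimulated cultures went down to 0.192 RPM. Without culture 2 of replicate 2 in both unstimulated groups, which in vehicle is the culture with 29.0 RPM, the log2 difference was -1.81 and no longer passed (adjusted p = 0.601). It was -3.74 without unstimulated replicate 2 and -2.89 without sustained 60 min replicate 2 and did not pass either. Over all its 31 alternatives the adjusted p ran from 0.0140 to 0.601. Its companion chr1:133470000-133471130 differed by -2.74 (SE 0.88) and did not pass (adjusted p = 0.0545 by limma), but passed in edgeR's quasi-likelihood test (-3.19, adjusted p = 0.0103) and in DESeq2 (-3.29, adjusted p = 0.00119).

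**Figure D4:**
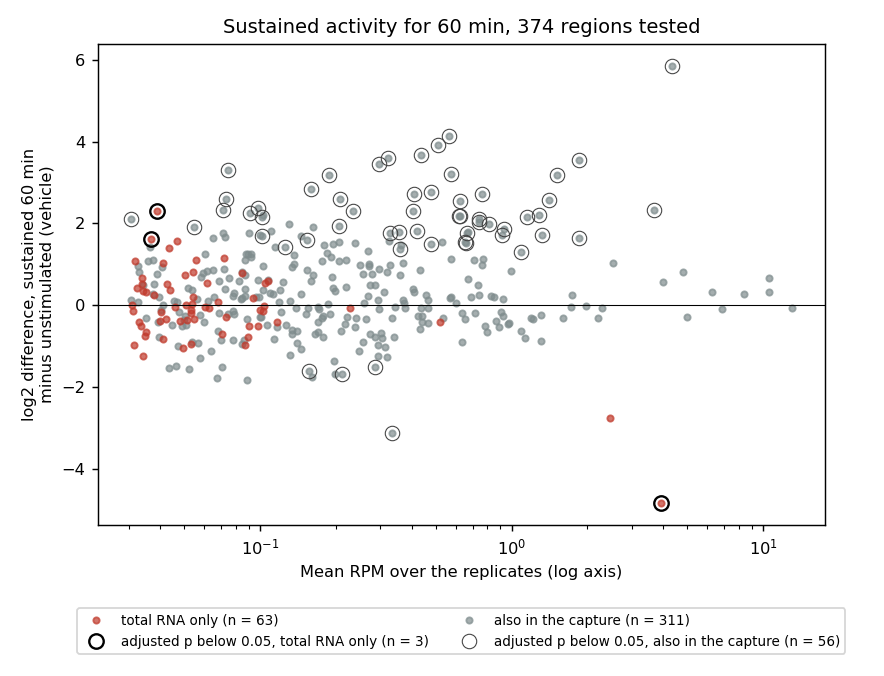
Log2 difference between sustained 60 min and unstimulated vehicle cultures against mean RPM over the replicates (log axis) for the 374 tested regions, with the 63 seen only in total RNA in red and the 311 captured in grey; rings mark an adjusted p below 0.05. Red points crowd at the low end, with 2 ringed at 2.31 and 1.62 and 1 ringed at -4.83, while 56 grey points are ringed.

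In the other comparisons with unstimulated vehicle cultures, none of the 63 regions passed. At sustained 20 min 5.88% of all tested regions passed in limma, and 3 of the 63 had an unadjusted p below 0.05, against 15.8% of all. At brief 20 min 3.74% passed, and 3 of the 63 had such a p, against 12.3% of all. At brief 60 min, with 1 library, 0% passed, and 5 of the 63 had such a p, against 11.5% of all. In the mean of the 4 stimulated groups 5.61% passed, and 2 of the 63 had such a p, against 17.1% of all. edgeR and DESeq2 called 0 of the 63 in each of these 4 comparisons.

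The region closest to the threshold in the pooled vehicle comparison was chr3:117112920-117114410, 101080 bp from the nearest captured region, with 31 reads. It read 0.0125 and 0 RPM unstimulated, 0.0610 and 0.0255 RPM at sustained 20 min, 0.0344 and 0.0325 RPM at sustained 60 min, 0.0447 and 0.0867 RPM at brief 20 min and 0.171 RPM at brief 60 min. All stimulated vehicle replicates lay above both unstimulated ones. The log2 difference was 1.42 (SE 0.39, adjusted p = 0.0569 by limma) and 1.38 (SE 0.35, adjusted p = 0.0342) with the replicate number as a block. In U0126, too, the stimulated replicates, between 0.0299 and 0.126 RPM, lay above the unstimulated ones at 0.0203 and 0 RPM, but that comparison did not pass (1.20, SE 0.39, adjusted p = 0.197 by limma).

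Sustained and brief activity were compared at the same times. At 20 min 0% of all tested regions passed, 3 of the 63 had an unadjusted p below 0.05 against 6.95% of all, and edgeR and DESeq2 called 0. At 60 min 5.61% of all tested regions passed in limma and none of the 63, of which 10 had an unadjusted p below 0.05 against 25.4% of all, and edgeR and DESeq2 called 0. The closest was the region beside Fos given above. With the replicate number as a block 3 of the 63 passed, against 0 without it, where 37 of all 374 tested regions (9.89%) passed with the block and 21 without. These were chr18:75072960-75074150 near Lipg, an endothelial lipase gene (2.77, adjusted p = 0.0390), chr10:80398130-80399390 near Gadd45b, a stress and activity response gene (-1.91, adjusted p = 0.0390), and chr2:94036030-94037070 near Hsd17b12, a fatty acid elongation enzyme gene (-2.95, adjusted p = 0.0486). The region near Lipg read 0.103 and 0.130 RPM at sustained 60 min, against 0 RPM at brief 60 min. The region near Gadd45b read 0.0344 and 0.0325 RPM, against 0.171 RPM, and the region near Hsd17b12 read 0 and 0.0325 RPM, against 0.229 RPM. All 3 rest on the single brief 60 min library, where 1 read was worth 0.0572 RPM.

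None of the 63 regions differed detectably between U0126 and vehicle. In this comparison 0% of all tested regions passed in unstimulated cultures, 0.267% in the sustained groups and 0.267% in the brief groups, and none of the 63 did. Of the 63, 1, 4 and 4 had an unadjusted p below 0.05 in these 3 comparisons, against 2.41%, 7.75% and 11% of all tested regions. For the difference between the U0126 response and the vehicle response 0.267% passed, again none of the 63, and 3 had an unadjusted p below 0.05, against 2.41% of all. edgeR and DESeq2 called 0 of the 63 in all 4. In U0126, the mean of the stimulated groups against unstimulated cultures gave 1.6% of all tested regions and none of the 63, with 5 at an unadjusted p below 0.05, against 11.5% of all. DESeq2 called 0 there, and edgeR called 2, the 2 highest regions, at -3.10 for chromosome 5 (adjusted p = 0.0388) and -2.06 for chromosome 1 (adjusted p = 0.0461). The median SE was near 0.53 on the log2 scale in the pooled comparisons of treatments. Differences several times that size could also have gone undetected at this depth.

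Activity-regulated genes offered a narrower set. From a list of 45 such genes, 27 had a captured region with at least 1 of the 589 regions within 100 kb, 61 regions in all with 1373 reads and a median of 8 reads. The list was compiled with earlier results of these data known. Summed, these 61 regions gave 2.41 RPM at sustained 60 min in U0126 (n = 1), against 1.85 ± 0.41 RPM unstimulated (SD, n = 2). In vehicle they gave 2.16 ± 0.48 RPM at sustained 60 min, against 2.04 ± 0.59 RPM unstimulated (SD, n = 2 each). By replicate number this was 1.82 RPM, against 1.63 RPM, in replicate 1 and 2.50 RPM, against 2.46 RPM, in replicate 2. The 13 regions within 5 kb summed to 0.595 ± 0.307 RPM at sustained 60 min and 0.353 ± 0.192 RPM unstimulated in vehicle (SD, n = 2 each). Sustained 60 min was higher in both replicate numbers, with 0.378 RPM, against 0.217 RPM, in replicate 1 and 0.812 RPM, against 0.489 RPM, in replicate 2. These sums rest on 11 and 25 reads at sustained 60 min, against 16 and 25 reads in the unstimulated replicates, and carry no test. The remaining vehicle means of the 13 were 0.632 RPM at sustained 20 min, 0.620 RPM at brief 20 min and 0.114 RPM at brief 60 min (n = 1). In U0126 their sum was lower at sustained 60 min, 0.365 RPM (n = 1), against 0.524 ± 0.325 RPM unstimulated (SD, n = 2). The other stimulated U0126 means lay between 0.269 and 0.389 RPM. The 13 include the region beside Fos that passed above.

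Of the 61, 13 were tested, and 1, the region beside Fos, passed in any of the 12 comparisons. At sustained 60 min 15.8% of all tested regions passed. There 7 of the 13 had a log2 difference above 0, with a median of 0.53, where 27 of the 63 and 217 of all 374 (58.0%) were above 0 and the median over all was 0.21. Values that did not pass were 1.57 for chr10:98785520-98786820, 11770 bp from a captured region of Dusp6, a phosphatase of ERK (adjusted p = 0.129), and 0.80 and 0.74 for chr4:47958020-47959090 and chr4:47965750-47966930, 2160 and 3190 bp from captured regions of Nr4a3. The region near Dusp6 read 0.103 and 0.130 RPM at sustained 60 min, against 0.0183 and 0.0192 RPM unstimulated, without overlap, from few reads.

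Both kinds of region can be set side by side at 3 loci, chosen after their values were seen. At Fos the 4 regions seen only in total RNA summed to 0.0687 and 0.162 RPM at sustained 60 min, against 0.0433 and 0.0384 RPM unstimulated in vehicle. These sums include the region beside Fos that passed above, with a mean of 0.0993 RPM at sustained 60 min. None of the others was higher there than unstimulated, so the sums are not separate from that call. The 6 captured Fos regions summed to 3.88 and 5.23 RPM, against 0.402 and 0.633 RPM. At Kcnf1 the 9 regions summed to 0.378 and 0.195 RPM at sustained 60 min, against 0.0374 and 0.0706 RPM unstimulated, and its 3 captured regions to 0.550 and 0.195 RPM, against 0.161 and 0.120 RPM. The sum of the 9 includes chr12:17168720-17169790, which passed above, with a mean of 0.136 RPM at sustained 60 min. Its other regions went both ways. At Rgs4 the 13 regions summed to 0.206 and 0.0650 RPM, against 0.0741 and 0.0384 RPM, and its 2 captured regions to 0.309 and 0.260 RPM, against 0.105 and 0.355 RPM, where the groups overlapped.

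The 63 regions were also compared by replicate number. This comparison draws on all groups that had both numbers. The SEs of the 6 regions that passed were 0.21 to 0.38, against a median of 0.67 at sustained 60 min. Its count is therefore not comparable with the counts for activity or drug above. Labels tie cultures of a number to 1 dissection in the unstimulated groups only, so the number is used here as a label. In a comparison of replicates numbered 2 with those numbered 1, within groups and added after the data were seen, 8.56% of all tested regions passed in limma. Of the 63, 6 passed, a share near that of all tested regions. All 6 were higher in replicates numbered 2, where 6.42% of all tested regions were higher and 2.14% lower. Among captured regions 18 were higher and 8 lower of 311. An unadjusted p below 0.05 was found for 17 of the 63 and 24.6% of all. With edgeR 2 of the 63 passed.

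The largest of these differences was at chr3:145319520-145320550, 2520 bp from a captured region of Cyr61. Its 8 replicates numbered 2 read from 0.0345 to 0.434 RPM with a median of 0.185 RPM, and its 10 replicates numbered 1 from 0 to 0.0631 RPM with a median of 0.00623 RPM. In reads this was 67 against 8. The region was higher in replicate 2 in 7 of the 8 groups that had both numbers, by 2.08 on the log2 scale (SE 0.38, adjusted p = 0.00605 by limma), and passed in all 27 alternatives, with adjusted p from 3.02e-05 to 0.0325. The 3 captured Cyr61 regions were higher in replicate 2 in 8 of 8 groups, with medians of 1.32 against 0.214 RPM, 0.469 against 0.155 RPM and 0.160 against 0 RPM. Cyr61 introns had medians of 30.2 against 6.24 intron RPM. The region seen only in total RNA thus varied by replicate number in the same direction as its captured neighbours and the introns of the gene.

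The other 5 had smaller differences. They were chr1:153568470-153569630 (1.20, adjusted p = 0.0285), chr4:47965750-47966930 near Nr4a3 (1.06, adjusted p = 0.0305), chr11:113430550-113431600 (0.83, adjusted p = 0.0305) and chr11:113471150-113472270 (1.08, adjusted p = 0.0433) near Sstr2, and chr11:68879210-68880280, 1580 bp from a captured region of the clock gene Per1 (0.77, adjusted p = 0.0451 by limma). The region near Per1 had medians of 0.0749 RPM in replicates numbered 2 and 0.0326 RPM in those numbered 1, while its nearest captured region had 0.577 and 0.822 RPM and was higher in replicate 2 in 1 of 8 groups. Per1 introns were higher in replicate 2 in 8 of 8 groups, with medians of 13.0 and 10.9 intron RPM. The captured region nearest to the 2 regions near Sstr2 had medians of 0.175 and 0.172 RPM and was higher in replicate 2 in 5 of 8 groups. Sstr2 introns were higher in replicate 2 in 0 of 8 groups, with medians of 4.10 and 5.41 intron RPM. Each of these 5 lost its call in at least 12 alternatives.

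**Figure D5:**
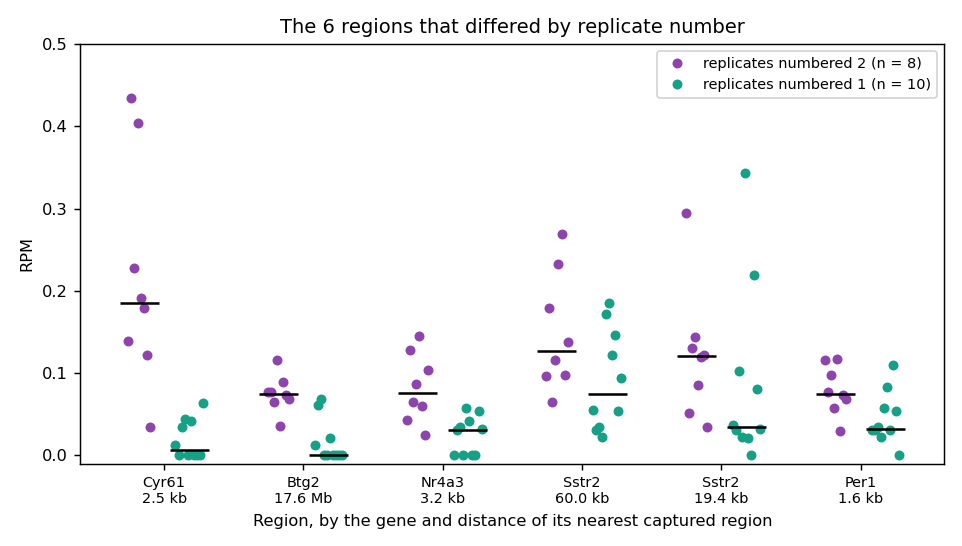
RPM of the 6 regions that differed by replicate number, in the 8 replicates numbered 2 (purple) and the 10 numbered 1 (green), with cultures of 1 dissection averaged; bars are medians, and the labels give the gene and distance of the nearest captured region. The region near Cyr61 has the least overlap, with medians of 0.185 and 0.00623 RPM.

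Marker genes in the intron values of the same libraries also moved with the replicate number. All 9 neuronal markers were measured, and their summed level was 2720 to 3056 intron RPM in replicates numbered 2 and 3296 to 3821 intron RPM in those numbered 1, so neuronal RNA was abundant in both. Astrocyte markers summed to medians of 472 and 331 intron RPM, oligodendrocyte lineage markers to 70.9 and 134 intron RPM, and microglia markers to 4.92 and 4.77 intron RPM, in each case replicate 2 before replicate 1. Of these sums 3 rested mainly on 1 gene. Over the libraries Map2 had a median of 2621 intron RPM in the neuronal sum. Pdgfra had 92.9 intron RPM in the oligodendrocyte lineage sum and Aif1 4.08 intron RPM in the microglia sum. Progenitor markers ranged from 38.6 to 48.3 intron RPM in replicates numbered 2 and from 16.9 to 22.7 intron RPM in those numbered 1. The 3 measured endothelial markers summed to 39.0 and 1.81 intron RPM, which rested on Kdr at 37.5 and 0.579 intron RPM, while Pecam1 stood at 1.09 and 1.08 intron RPM. Flt1 was low, at 0.503 and 0.123 intron RPM, and higher in replicate 2 in 7 of 8 groups. The part of these markers in the differences by replicate number was not tested.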

How the data were processed

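The files used were tables of RPM deposited by the authors for 940 enhancer regions and for introns of 27962 transcripts in 24 total RNA libraries, and the region list of the enhancer capture. Per the submitters' processing notes, STAR, SAMtools and bedtools were used with mm9; versions and the read total behind the RPM are not given in the sources used here. RPM steps gave whole reads for 100% of values within 0.05 reads, so reads were recovered. The 3193 to 9145 enhancer reads per library limit the precision, and intervals and floors cover counting error only. No genome of that build was used, so sequences are not printed.

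The tests used limma 3.58.1 in R 4.3.3 on log2(RPM + 0.03035), where the pseudocount is the 10th percentile of non-zero values and regions with a lower mean were left out. Group means were compared without a replicate block, with all groups sharing 1 estimate of the spread. edgeR 4.0.16 and DESeq2 1.42.0 on recovered reads, other filters, pseudocounts and scalings, and each replicate left out were alternatives. Scripts were tested on simulated data. Named regions were those past the threshold, the 10 with the highest RPM per kb, and those near listed genes. The regions and gene lists were chosen with earlier results of these data known. Replicates in stimulated groups are not stated to be separate dissections, so p-values measure only the spread between these samples, which may be technical.

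Whether replicate numbers pair the samples was checked by correlating deviations from group means. All 28 pairs of groups exceeded 0.1, from 0.208 to 0.385 in enhancers and from 0.842 to 0.905 in introns, so the numbers were taken to pair the samples. The main tests of activity and drug did not use this pairing. With it as a block, 66 of all tested regions passed at sustained 60 min in vehicle, against 59 without it. Of the regions seen only in total RNA, 3 passed either way. That pairing comes from the data and, for unstimulated cultures, from the labels.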

Additional observations from a re-analysis of the deposited data

Results flagged for a closer look

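A library far from the others was looked for in 18 measures and in each unstimulated group of 4 libraries, 36 groups in all. Of these, 9 were flagged. The rule flags about 1 in 20 by chance for normally distributed values only. With few reads that rate does not hold, since a library with reads is always flagged when the others have none. Some measures also share reads. In U0126, culture 2 of replicate 2 stood apart for the sum of all 589 regions (36.2 RPM). In vehicle, culture 2 of replicate 2 stood above the other 3 for the sum of all 589 regions (48.5 RPM), the sum of the 2 highest regions (42.3 RPM), the region chr5:17281980-17283110 (29.0 RPM) and the region chr1:133470000-133471130 (13.3 RPM). These 4 values share the same reads.

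In 4 single regions a library stood apart from the other 3. In U0126, chr3:65264420-65265440 near Tiparp read 0.163 RPM in culture 1 of replicate 1. In vehicle, chr12:86775280-86776310 beside Fos read 0.0498 RPM in culture 2 of replicate 1, from 2 reads, and 0 RPM in the others. In culture 1 of replicate 2, chr1:153568470-153569630 read 0.154 RPM and chr11:68879210-68880280 near Per1 read 0.231 RPM.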

How the results depend on the processing

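At sustained 60 min in vehicle, 3 of 63 regions passed; the count was 1 with the pseudocount halved, 0 with the identical column kept as vehicle brief 60 min, 0 without culture 2 of replicate 2 in the unstimulated groups, and 0 to 3 with a replicate left out. With no filter on low values 4 passed, among 515 tested, and none of them was one of the 3. Without the filter, regions with hardly any reads could pass, such as chr1:171733470-171734830, which had 1 read over the 22 libraries. The share of all 866 regions tested there that passed is not given here, so these counts cannot be set against it. Counts that were 0 became, with no filter, 1 at brief 20 min, 2 at brief 60 min, 9 for sustained against brief 60 min and 2 for U0126 against vehicle in the brief groups. In the pooled vehicle response 1 region passed with the pseudocount halved, with first cultures only, with the identical column kept as U0126 sustained 60 min, with the replicate block, and with a replicate left out at most (0 to 1). The replicate block, which rests on the pairing of numbers, also gave 3 for sustained against brief 60 min and changed the count in none of the other 10 comparisons. In the pooled U0126 response 2 passed in edgeR. For replicate 2 against replicate 1, 6 became 2 with no filter, 3 with the filter at a doubled level, 2 in edgeR and 2 to 8 with a replicate left out.

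The summed log2 ratio of all 589 regions depended on the 2 highest. In vehicle it was -1.14 at sustained 60 min, and -0.35 with first cultures only, -0.23 without culture 2 of replicate 2, 0.17 without the 2 highest regions and -1.67 to -0.28 with a replicate left out. At sustained 20 min, 0.015 became 0.80, 0.92 and -0.71 to 0.87 under the first, second and last of these. At brief 20 min, -0.24 became 0.54, 0.66 and -0.77 to 0.61. At brief 60 min, -0.97 became -0.19, -0.069, 0.11 and -1.50 to -0.12, and for the pooled response -0.50 became 0.28, 0.40, 0.13 and -1.04 to 0.35. In U0126 the pooled -0.65 became 0.16, 0.026, 0.088 and -1.07 to -0.072. With a replicate left out, sustained against brief 20 min (0.25) ranged from -0.47 to 0.73, U0126 against vehicle in unstimulated cultures (-0.23) from -0.81 to 0.62, and in sustained groups (-0.32) from -0.67 to 0.14, and the difference of responses (-0.15) from -1.002 to 0.43. The cause was not tested. Groups left with 1 sample were assumed to vary like the others. Leaving out regions that overlap a captured one changes nothing, since none does, and leaving out regions inside transcripts was not run. The median region had 4 reads over 22 libraries, which limits all single-region results.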

Other observations

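The identical column deposited for vehicle brief 60 min replicate 2 and U0126 sustained 60 min replicate 2 held 248 reads of the 589 regions. Its sum was 8.55 RPM over the 587 regions without the 2 highest, against at most 9.88 RPM in an unstimulated library, and 0.916 RPM over the 2 highest, against at most 42.3 RPM. Over captured regions it was 229.0 RPM, against at most 170.6 RPM. The sources used here do not say which sample the column belongs to.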
